A study of Mus musculus with 6 samples.

Results

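Integrins are the receptors by which cells hold on to extracellular matrix and to each other, and the focal adhesion adaptors are the cytoplasmic proteins that tie them to actin. A list of 35 mouse genes was examined, made of the integrin α and β subunits and of their main adaptors and defined by name, with no threshold on a measured value. The list was chosen with earlier results of these data known. Of these, 34 were found among the 25428 features measured, namely 17 α subunits, 8 β subunits and 9 adaptors. The remaining gene had no entry in the annotation used to name features and was not analysed here. Lung lobes of Nfat5fl/fl mice, which carry floxed alleles of the transcription factor gene Nfat5, were compared with those of Nfat5(EC)-/- mice, in which Nfat5 was deleted in endothelial cells. All mice of both genotypes were kept at 10% oxygen for 7 days, so that the values describe the genotype difference in hypoxia and not the response to hypoxia. Each group held 3 mice, numbered 1, 3 and 4, with 1 Affymetrix array per mouse and lobe. The driver of the deletion and the age and sex of the mice were not stated in the labels.

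Every integrin is a pair of 1 α and 1 β subunit, and the pairing decides what is bound: collagen, laminin, the RGD motif of fibronectin and other proteins, or counter-receptors on other cells. The cytoplasmic tail of the β subunit is bound by talin and kindlin, which switch the receptor to its active form, and vinculin, the kinase-like scaffold ILK with its parvins, paxillin and zyxin then join the growing adhesion. In the lung, integrins anchor endothelium and epithelium to their shared basement membrane, guide leukocytes into the tissue and release TGF-β from its latent form.

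Values are log2 expression values as deposited. A difference is the mean of the Nfat5(EC)-/- lungs minus that of the Nfat5fl/fl lungs, in log2 units, and is given with its standard error (SE). It was tested with limma, p was adjusted across the 25428 features by the Benjamini-Hochberg method, and a gene passed where the adjusted p was under 0.05. The median value of each array was 2.98. Precision is limited by the number of arrays. Nfat5 itself measured 6.65, 6.58 and 6.30 in Nfat5fl/fl mice 1, 3 and 4 and 4.46, 4.48 and 3.89 in Nfat5(EC)-/- mice 1, 3 and 4, so that each deleted lung lay below each control lung. Correlations across features were 0.968 to 0.970 between the Nfat5fl/fl arrays, 0.916 to 0.939 between the Nfat5(EC)-/- arrays and 0.829 to 0.919 between the groups. Nfat5(EC)-/- mouse 4 stood apart for the adhesion genes, since it was the Nfat5(EC)-/- array farthest from the control mean for 21 of the 34 genes (61.8%), against 37.5% of all features. Over all features Nfat5(EC)-/- mouse 1 was farthest most often (41.1%), against 17.6% of the adhesion genes. Whole lobes were measured, so that fewer cells of a type and less RNA per cell cannot be told apart. Separate mice are given by the labels, but nothing else is said of their origin, so p-values refer to these 6 lungs. They set the difference between the groups against the spread within them, partly pooled across features.

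Adhesion genes differed between the genotypes in both directions. Of 34 genes 8 were higher in Nfat5(EC)-/- lungs (Itga3, Itga7, Itga11, Itgb4, Itgb5, Tln1, Pxn and Zyx), 9 were lower (Itga1, Itga2, Itga4, Itga6, Itga8, Itgav, Itgb1, Itgb6 and Fermt2) and 17 did not pass. Thus 17 of 34 passed, while of all features 25.6% passed, 12.5% higher and 13.1% lower, and of protein-coding features 28.3%, 13.2% higher and 15.1% lower. These shares include many dim features, since both group means lay below the array median for 11160 of the 25428 features but for only 4 of the 34 genes. With dim features left out, 9 of 30 adhesion genes were higher and 9 lower, beside 2980 and 3001 of 12714 features. The median difference of the 34 genes was 0.02, beside 0.04 over all features. Groups did not overlap for 21 of the 34 genes, 11 higher and 10 lower, against 42.0% of all features, 22.0% higher and 20.0% lower. Without Nfat5(EC)-/- mouse 4, 6 genes were higher and 7 lower. When each array was left out in turn, 7 genes passed in every fit, namely Itga2, Itgb1 and Itgb6 as lower and Itga7, Tln1, Pxn and Zyx as higher, and the other 10 lost their call at least once. An ordinary linear model without the pooling of variances across features left 4 higher genes (Itga7, Tln1, Pxn and Zyx) and 0 lower ones, although all 9 lower genes had an unadjusted p under 0.05 in it.

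**Figure D1:**
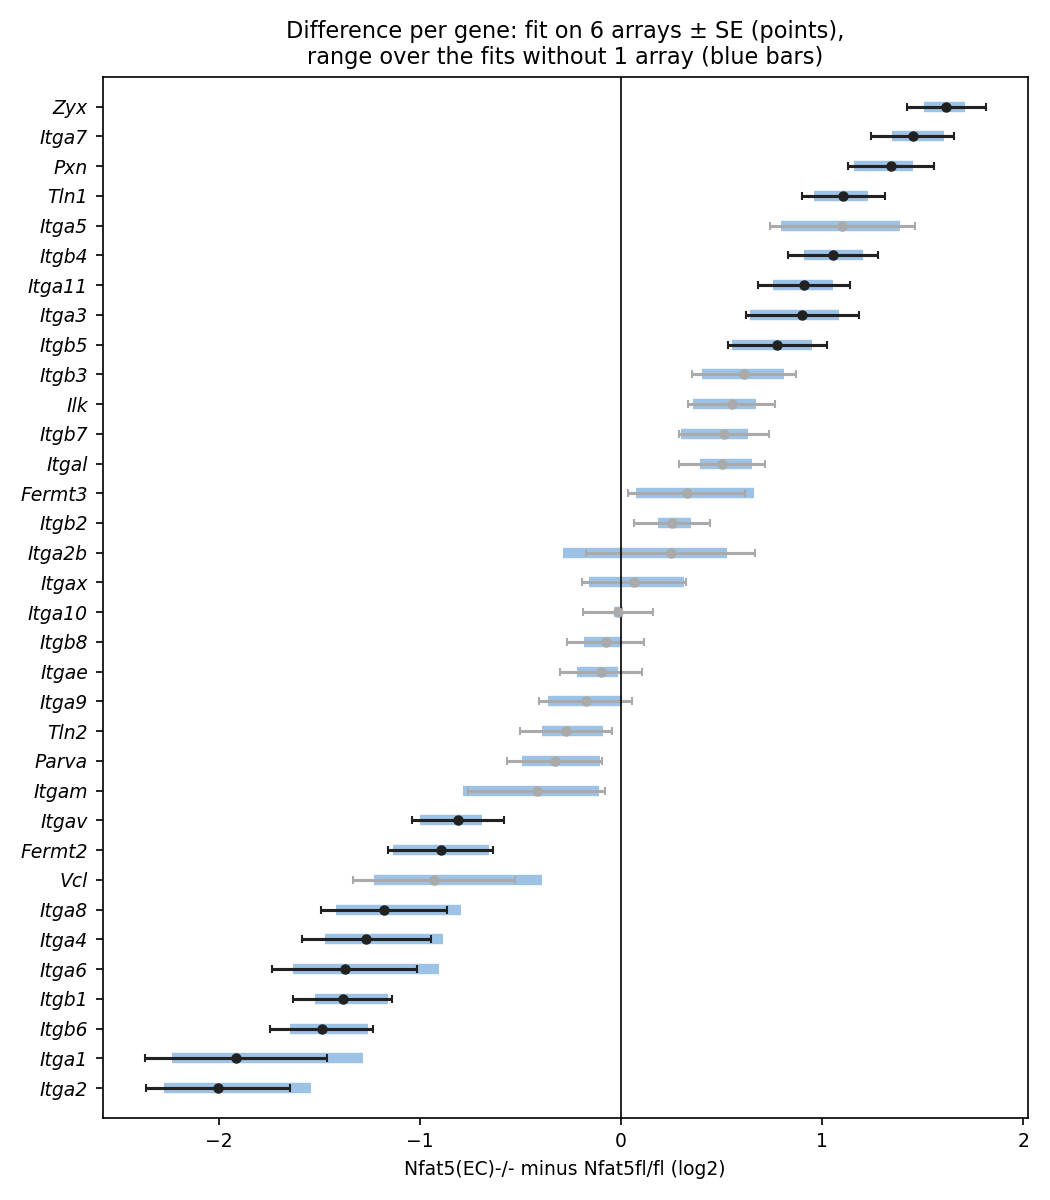
Difference between Nfat5(EC)-/- and Nfat5fl/fl lungs per gene in log2 units, 3 arrays per group. Points are limma estimates with their SE (black for genes that passed, grey for the others), and blue bars span the estimates when 1 array was left out. Zyx lies at the top with 1.62 and Itga2 at the bottom with -2.0, and the wide bars of Itga1, Itga6 and Vcl reach toward 0 in the fit without Nfat5(EC)-/- mouse 4.

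To show the sequence upstream of the genes whose calls held in every fit without 1 array, the 250 bases before the annotated start were taken from RefSeq (GRCm38.p6), which held such windows for Itga2, Itgb1, Itgb6 (a pair of starts), Tln1 and Zyx, but not for Itga7 and Pxn in the table used. Each line is written 5′ to 3′ on the strand of the gene. Capitals mark a match on either strand to TGGAAA, the core bound by NFAT proteins including NFAT5, to GGAATG, the core bound by the TEAD partners of YAP, or to the CArG box, the site of serum response factor.
Itga2, chr13:114932101-114932350, minus strand: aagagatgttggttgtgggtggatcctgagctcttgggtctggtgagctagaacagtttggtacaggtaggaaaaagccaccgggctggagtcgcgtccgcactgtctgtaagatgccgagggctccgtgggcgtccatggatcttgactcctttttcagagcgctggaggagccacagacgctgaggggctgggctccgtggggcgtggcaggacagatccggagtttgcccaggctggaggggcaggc
Itgb1, chr8:128685404-128685653, plus strand: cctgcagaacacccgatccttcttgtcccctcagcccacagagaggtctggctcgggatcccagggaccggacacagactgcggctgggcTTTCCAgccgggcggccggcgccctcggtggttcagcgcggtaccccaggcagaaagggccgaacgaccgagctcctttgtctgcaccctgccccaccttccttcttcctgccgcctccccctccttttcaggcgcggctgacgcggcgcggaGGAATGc
Itgb6, chr2:60673694-60673943, minus strand: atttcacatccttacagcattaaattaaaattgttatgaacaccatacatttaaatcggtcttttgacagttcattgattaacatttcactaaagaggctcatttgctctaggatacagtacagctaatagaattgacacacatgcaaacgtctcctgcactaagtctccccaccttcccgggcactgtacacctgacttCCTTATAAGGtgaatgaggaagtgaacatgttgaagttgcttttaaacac
Itgb6, chr2:60722604-60722853, minus strand: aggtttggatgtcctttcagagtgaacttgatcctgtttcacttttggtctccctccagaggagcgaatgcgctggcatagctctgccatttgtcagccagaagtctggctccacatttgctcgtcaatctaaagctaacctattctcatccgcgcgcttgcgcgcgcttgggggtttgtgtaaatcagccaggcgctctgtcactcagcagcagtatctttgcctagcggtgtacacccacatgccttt
Tln1, chr4:43562584-43562833, minus strand: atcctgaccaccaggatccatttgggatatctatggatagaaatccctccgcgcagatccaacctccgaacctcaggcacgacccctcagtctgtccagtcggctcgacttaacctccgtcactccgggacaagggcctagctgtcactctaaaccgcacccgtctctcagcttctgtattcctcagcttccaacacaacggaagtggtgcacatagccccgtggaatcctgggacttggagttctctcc
Zyx, chr6:42349578-42349827, plus strand: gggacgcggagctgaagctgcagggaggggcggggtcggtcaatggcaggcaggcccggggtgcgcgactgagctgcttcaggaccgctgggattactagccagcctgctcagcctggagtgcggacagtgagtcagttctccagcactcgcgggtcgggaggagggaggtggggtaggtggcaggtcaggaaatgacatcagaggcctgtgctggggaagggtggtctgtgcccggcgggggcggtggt
The Itgb1 window held TGGAAA on the reverse strand and GGAATG on the forward strand, and 1 of the Itgb6 windows held a CArG box. The windows of Itga2, Tln1 and Zyx and the other Itgb6 window held none of these letters. Among the 27 windows of the 24 adhesion genes with one, TGGAAA was present in 5 (18.5%), beside 17.5% of the 22375 windows of all named features. GGAATG was present in 3 (11.1%), beside 11.8%, and the CArG box likewise in 3 (11.1%, in Vcl, Fermt2 and Itgb6), beside 1.35%. A match describes letters in a window and not a bound site.

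Among the collagen receptors, Itga1, Itga2, Itga10 and Itga11 encode the α subunits that pair with β1 to bind collagen, Itga1 preferring the basement membrane form and Itga11 the fibrillar form. Itga1 and Itga2 were lower in the Nfat5(EC)-/- lungs while Itga11 was higher. Itga2 measured 6.25, 6.07 and 5.93 in Nfat5fl/fl mice 1, 3 and 4 and 4.46, 4.62 and 3.16 in Nfat5(EC)-/- mice 1, 3 and 4. The groups lay well apart, and mouse 4 was the lowest of the deleted lungs. Its difference was -2.0 (SE 0.36, adjusted p = 0.0053), a 4.01-fold decrease. Itga1 measured 8.24, 8.18 and 8.11 in the control lungs and 6.88, 6.90 and 5.0 in the deleted ones, a difference of -1.91 (SE 0.45, adjusted p = 0.0156). Control lungs lay close together, whereas mouse 4 of the deleted group fell far below its fellows. Without that mouse the difference of Itga1 was -1.28 (adjusted p = 0.0056), and its call was lost without Nfat5fl/fl mouse 1 (adjusted p = 0.0636) or Nfat5fl/fl mouse 3 (adjusted p = 0.0606). Itga11 measured 3.14, 2.86 and 2.55 in the control lungs and 3.73, 4.02 and 3.53 in the deleted ones. The control values were near the array median and the deleted ones all above it, and the groups did not overlap. The difference was 0.91 (SE 0.23, adjusted p = 0.0194), with a call lost without Nfat5fl/fl mouse 3 (adjusted p = 0.0711), Nfat5fl/fl mouse 4 (0.0726) or Nfat5(EC)-/- mouse 3 (0.0517). Itga10 stayed below the array median in every lung, between 2.23 and 2.31.

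Among the laminin receptors, Itga3, Itga6 and Itga7 encode α subunits that bind laminin with β1, and Itga6 also pairs with the product of Itgb4 in the hemidesmosomes of epithelia. All of these 4 genes passed, 3 higher and Itga6 lower. Itga7, best known from muscle including vascular smooth muscle, measured 4.24, 4.44 and 4.29 in the control lungs and 5.88, 5.47 and 5.98 in the deleted ones. The groups were separated by more than the spread within either, with a difference of 1.45 (SE 0.21, adjusted p = 0.0027), a 2.73-fold increase. Itgb4 measured 3.21, 3.29 and 3.69 in the control lungs and 4.32, 4.30 and 4.74 in the deleted ones (difference 1.05, SE 0.22, adjusted p = 0.0098). In both genotypes mouse 4 was the highest for Itgb4, and the call was lost without Nfat5fl/fl mouse 1 (adjusted p = 0.0503) or Nfat5fl/fl mouse 3 (0.0510). Its partner moved the other way: Itga6 measured 6.52, 6.79 and 6.56 in the control lungs and 5.76, 5.68 and 4.31 in the deleted ones (difference -1.37, SE 0.36, adjusted p = 0.0234). Nfat5(EC)-/- mouse 4 was again the lowest, and leaving it out brought the difference to -0.90 (adjusted p = 0.0169). The Itga6 call was lost without Nfat5fl/fl mouse 1, 3 or 4, with adjusted p-values of 0.0722, 0.0926 and 0.0625. Itga3, the α subunit of an epithelial laminin receptor, measured 6.11, 6.44 and 6.82 in the control lungs and 7.09, 7.10 and 7.88 in the deleted ones (difference 0.90, SE 0.28, adjusted p = 0.0439). Its groups were separated by a small gap, and the call was lost without Nfat5fl/fl mouse 1 (adjusted p = 0.162), Nfat5fl/fl mouse 3 (0.130) or Nfat5(EC)-/- mouse 4 (0.102, with a difference of 0.64). Of 6 smooth muscle markers, set beside Itga7, 0 passed in either direction by limma and 0 had an unadjusted p under 0.05, with summed linear values of 332 to 482 in the control lungs and 420 to 494 in the deleted ones.

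**Figure D2:**
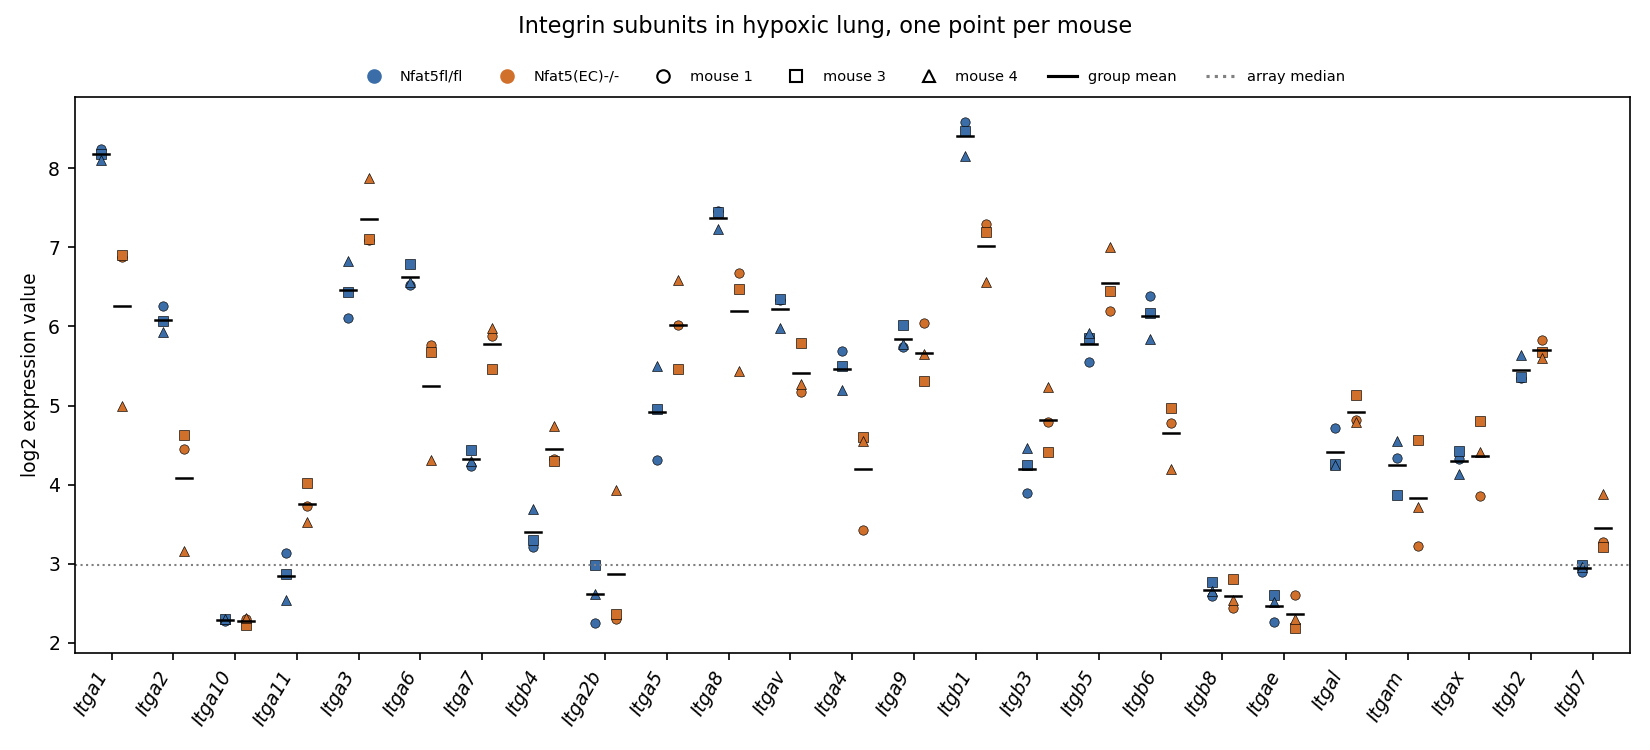
Log2 expression values of the 25 integrin subunits, 1 point per mouse, ordered by ligand class, with group means as bars and the array median of 2.98 as a dotted line. For Itga1, Itga2, Itga6 and Itga8 the orange triangle of Nfat5(EC)-/- mouse 4 lies lowest, and Itgb1 shows separate groups with deleted lungs between 6.57 and 7.29.

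The shared β1 subunit is encoded by Itgb1, the chain with which most matrix-binding α subunits pair, the collagen and laminin receptors above included. It measured 8.58, 8.47 and 8.15 in the control lungs and 7.29, 7.20 and 6.57 in the deleted ones. The highest deleted lung lay well below the lowest control lung. The difference was -1.38 (SE 0.25, adjusted p = 0.0052), a 2.61-fold decrease, and between -1.52 and -1.16 when any 1 array was left out.

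Receptors of RGD proteins are built from several α subunits, of which Itga5 encodes the fibronectin receptor subunit, Itga8 a subunit of mesenchymal and smooth muscle cells that binds nephronectin, Itgav the partner of several β subunits, and Itga2b the platelet fibrinogen receptor subunit. Itga8 and Itgav were lower, and the others did not pass. Itga8 measured 7.46, 7.44 and 7.23 in the control lungs and 6.68, 6.48 and 5.44 in the deleted ones (difference -1.18, SE 0.31, adjusted p = 0.0241). Each deleted lung lay below each control lung, mouse 4 furthest. Without that mouse the difference was -0.80 (adjusted p = 0.0266), and the call was lost without Nfat5fl/fl mouse 1, 3 or 4 (adjusted p between 0.0557 and 0.0890). Itgav measured 6.33, 6.34 and 5.98 in the control lungs and 5.17, 5.79 and 5.27 in the deleted ones (difference -0.81, SE 0.23, adjusted p = 0.0307). The gap between the groups was small, and 4 of the 6 fits without 1 array lost the call, namely those without Nfat5fl/fl mouse 1 or 3 or Nfat5(EC)-/- mouse 1 or 4 (adjusted p between 0.0675 and 0.118, with a difference of -0.74 without mouse 4). Itga5 measured 4.31, 4.95 and 5.50 in the control lungs and 6.01, 5.46 and 6.59 in the deleted ones, a difference of 1.10 (SE 0.36) with an adjusted p of 0.0513. These groups overlapped, since deleted mouse 3 lay just under control mouse 4, and the spread within each was wide. Itga5 passed in 6 of the 10 alternative fits of all arrays, cyclic loess normalization among them (adjusted p = 0.0481). Itga2b lay below the array median apart from Nfat5fl/fl mouse 3 and Nfat5(EC)-/- mouse 4, in which it measured 2.98 and 3.93.

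The β subunits Itgb3, Itgb5, Itgb6 and Itgb8 pair with αv, and the receptors with β6 and β8 are the main activators of latent TGF-β. Itgb6, whose product is made by epithelial cells, was lower, and Itgb5 was higher. Itgb6 measured 6.39, 6.17 and 5.84 in the control lungs and 4.78, 4.97 and 4.19 in the deleted ones. In every deleted lung the value lay below that of every control lung, and the difference was -1.49 (SE 0.26, adjusted p = 0.0046), a 2.80-fold decrease. Itgb5, a vitronectin receptor subunit, measured 5.55, 5.85 and 5.92 in the control lungs and 6.20, 6.45 and 7.00 in the deleted ones (difference 0.78, SE 0.25, adjusted p = 0.0462). This call rested on all arrays, because every fit but the one without Nfat5(EC)-/- mouse 1 lost it (adjusted p between 0.0694 and 0.162 without Nfat5fl/fl mouse 1, 3 or 4 or Nfat5(EC)-/- mouse 3 or 4), and without Nfat5(EC)-/- mouse 4 the difference was 0.55. Itgb3, the subunit that platelets share with proliferating endothelium, measured 3.89, 4.25 and 4.46 in the control lungs and 4.79, 4.42 and 5.23 in the deleted ones, with a difference of 0.61 (SE 0.26) and an adjusted p of 0.117. The groups of Itgb3 overlapped slightly, and the difference was 0.40 without Nfat5(EC)-/- mouse 4. Of 5 measured platelet markers 0 were higher and 1 was lower, Gp6 and Gp1bb had means below the array median in both groups, and the summed linear values were 50.6 to 69.1 in the control lungs and 40.2 to 61.9 in the deleted ones. Itgb8 lay between 2.44 and 2.81 in all lungs, below the array median. Alveolar type 2 markers, of an epithelial cell, were lower for 2 of 5 and higher for 0, with sums of 8378 to 9445 in the control lungs and 4776 to 8232 in the deleted ones. Alveolar type 1 markers were lower for 1 and higher for 1 of 5, with sums of 1174 to 1662 and 1784 to 2501. Ager, the brightest of these type 1 markers, did not pass (difference 0.64, SE 0.25, adjusted p = 0.0950). The part of both cell types in the Itgb6 result was not tested.

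Itga4 and Itga9 encode α subunits that bind VCAM-1 and osteopontin, and Itga4 is carried by many lymphocytes and monocytes. Itgal, Itgam, Itgax and Itgae encode leukocyte α subunits, and Itgb2 and Itgb7 their β chains. Itga4 was lower, and 0 of the 6 leukocyte subunits passed. Itga4 measured 5.68, 5.50 and 5.20 in the control lungs and 3.43, 4.60 and 4.55 in the deleted ones, a difference of -1.27 (SE 0.32, adjusted p = 0.0203). The deleted lungs were all lower, mouse 1 most so, and without it the difference was -0.89 (adjusted p = 0.0204). The call was lost without Nfat5fl/fl mouse 1 (adjusted p = 0.0857) or Nfat5fl/fl mouse 3 (0.0752). Itgal, the α chain of LFA-1, measured 4.71, 4.26 and 4.25 in the control lungs and 4.81, 5.14 and 4.79 in the deleted ones (difference 0.50, SE 0.21, adjusted p = 0.118). Itgb7 measured 2.90, 2.98 and 2.96 in the control lungs and 3.27, 3.21 and 3.89 in the deleted ones (difference 0.51, SE 0.23, adjusted p = 0.131), and without mouse 4, the highest of the deleted lungs, the difference was 0.30 (adjusted p = 0.304). For these 2 genes the groups did not overlap, and they were the leukocyte subunits with an unadjusted p under 0.05 by limma. Itgb2, the common β chain of LFA-1 and Mac-1, was within 5.35 to 5.63 in the control lungs and 5.59 to 5.83 in the deleted ones, a difference of 0.25 (SE 0.19, adjusted p = 0.379). Itgam and Itgax, of Mac-1 and of dendritic cells and macrophages, differed by -0.42 (SE 0.34, adjusted p = 0.421) and 0.06 (SE 0.26, adjusted p = 0.891). The Itgam difference lay between -0.78, without Nfat5(EC)-/- mouse 3, and -0.11, without Nfat5(EC)-/- mouse 1. Itga9 differed by -0.18 (SE 0.23, adjusted p = 0.633), and Itgae stayed below the array median in every lung. Common leukocyte markers were split, with Laptm5 and Coro1a higher (1.27 and 1.45) and Ptprc and Cd53 lower (-1.53 and -0.87) of 5. The summed linear values of the 5 were 399.7 to 429 in the control lungs and 649 to 830.2 in the deleted ones. Laptm5, with means of 7.75 and 9.02, made the largest part of these sums. The part of leukocytes in the Itga4 result was not tested.

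Of the 9 adaptors Tln1, Pxn and Zyx were higher, Fermt2 was lower and 5 did not pass. Zyx encodes zyxin, a LIM protein that moves to actin fibres under strain and recruits VASP. It measured 5.43, 5.37 and 5.60 in the control lungs and 7.04, 6.90 and 7.30 in the deleted ones. Both groups were tight and far apart, with a difference of 1.62 (SE 0.20, adjusted p = 0.0020), a 3.07-fold increase. Pxn encodes paxillin, the scaffold of nascent adhesions, and measured 5.48, 5.57 and 5.65 in the control lungs and 6.76, 6.69 and 7.28 in the deleted ones. Again no deleted lung approached the controls, and the difference was 1.34 (SE 0.22, adjusted p = 0.0037). Tln1 encodes talin, the link between the β tail and actin, and measured 6.22, 6.56 and 6.75 in the control lungs and 7.71, 7.53 and 7.61 in the deleted ones. The difference was 1.11 (SE 0.20, adjusted p = 0.0060), with less spread among the deleted than among the control lungs. Its paralog Tln2 differed by -0.27 (SE 0.23, adjusted p = 0.430), and by -0.09 without Nfat5fl/fl mouse 4, its highest lung. Fermt2 encodes a kindlin of non-blood cells and measured 6.60, 6.50 and 6.25 in the control lungs and 6.02, 5.56 and 5.08 in the deleted ones (difference -0.90, SE 0.26, adjusted p = 0.0340). The groups lay apart, but the Fermt2 call held in only 1 of the 6 fits without 1 array, that without Nfat5(EC)-/- mouse 1, and adjusted p was 0.0605 to 0.121 without Nfat5fl/fl mouse 1, 3 or 4 or Nfat5(EC)-/- mouse 3 or 4, and 0.0501 with cyclic loess normalization. Without Nfat5(EC)-/- mouse 4 the Fermt2 difference was -0.66. Fermt3, the kindlin of blood cells, differed by 0.33 (SE 0.29, adjusted p = 0.465), and without Nfat5(EC)-/- mouse 1, its lowest lung at 3.12, by 0.66 (adjusted p = 0.0460), but by 0.08 without Nfat5(EC)-/- mouse 4. Vcl encodes vinculin, which reinforces the talin link, and measured 7.67, 7.88 and 7.58 in the control lungs and 7.38, 7.25 and 5.70 in the deleted ones. All deleted lungs were lower, but mouse 4 by far the most, and the difference was -0.93 (SE 0.40, adjusted p = 0.126) with that mouse and -0.39 without it. Ilk measured 6.02, 6.04 and 6.11 in the control lungs and 6.37, 6.46 and 6.99 in the deleted ones (difference 0.55, SE 0.22, adjusted p = 0.0968), and Parva, its α-parvin partner, differed by -0.33 (SE 0.24, adjusted p = 0.355). Without Nfat5(EC)-/- mouse 4, the highest lung for Ilk and the lowest for Parva, these differences were 0.36 and -0.11.

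**Figure D3:**
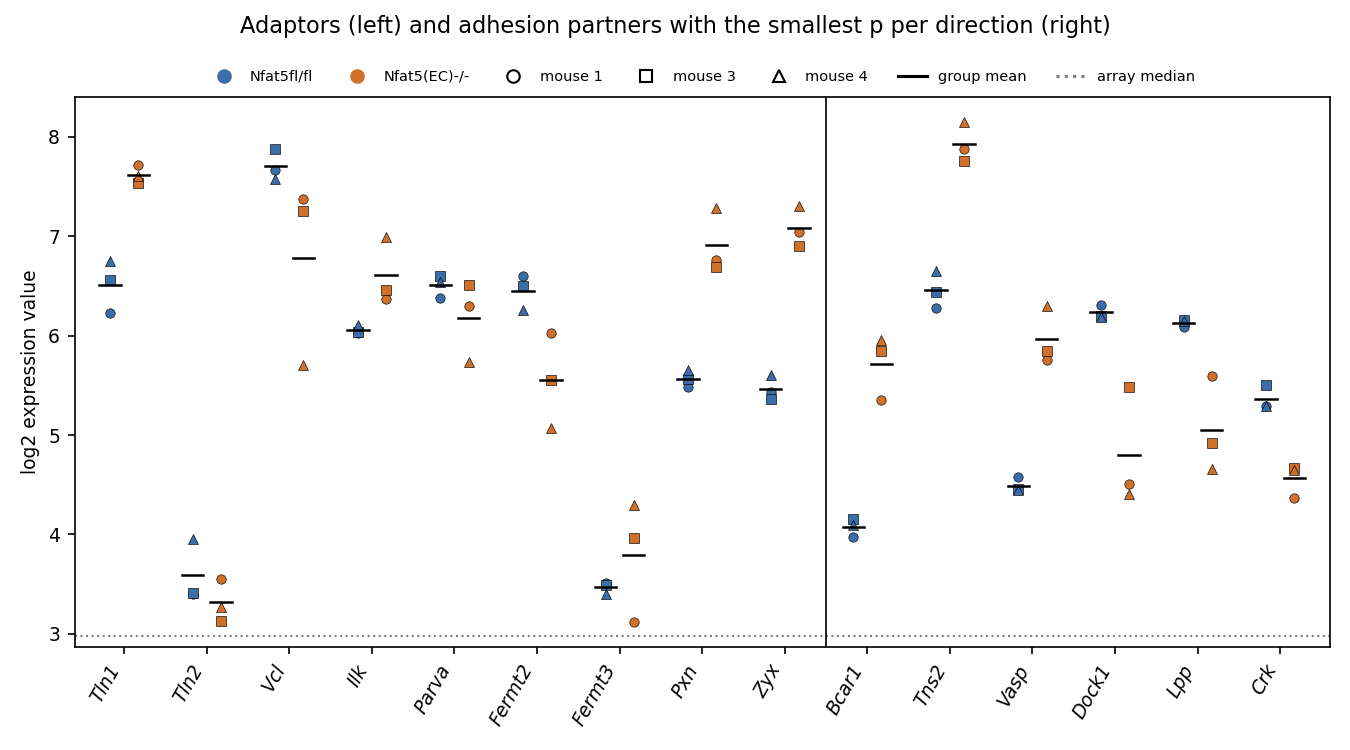
Log2 expression values of the 9 adaptors (left of the line) and of the 6 further adhesion proteins named by their p (right), 1 point per mouse, with group means as bars and the array median as a dotted line. Zyx, Pxn and Tln1 show separate groups with the deleted lungs higher, and Vcl shows 1 deleted lung, mouse 4, at 5.70 below all others.

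Further proteins of the adhesion machinery were counted from a list of 46 genes, of which 42 were measured. Of these 12 were higher and 9 lower, beside 12.5% and 13.1% of all features, and the median difference was -0.03. With dim features left out, 13 of 40 were higher and 8 lower, beside 2980 and 3001 of 12714 features. The 3 higher genes with the smallest p were Bcar1, the p130Cas docking protein, with means of 4.07 ± 0.09 and 5.72 ± 0.32 (SD, n = 3 each, difference 1.65, SE 0.22), Tns2, a tensin, with 6.45 ± 0.19 and 7.93 ± 0.20 (difference 1.47, SE 0.20), and Vasp, the actin elongation factor recruited by zyxin, with 4.49 ± 0.07 and 5.97 ± 0.29 (difference 1.48, SE 0.21). Adjusted p was 0.0023 for Bcar1. The 3 lower genes with the smallest p were Dock1, which activates RAC downstream of p130Cas, with 6.23 ± 0.07 and 4.80 ± 0.59 (difference -1.43, SE 0.29), Lpp, a relative of zyxin, with 6.13 ± 0.04 and 5.05 ± 0.48 (difference -1.08, SE 0.25), and Crk, an adaptor between p130Cas and DOCK1, with 5.36 ± 0.12 and 4.56 ± 0.17 (difference -0.80, SE 0.19). Thus Bcar1 was higher, and Crk and Dock1, which act with its product, were lower. Chosen after their values were seen, the paralogs of the complex of ILK, PINCH and parvin also differed in direction. Lims1 was lower (-1.20, SE 0.34, adjusted p = 0.0300). Lims2 (0.97, SE 0.18, adjusted p = 0.0062), Parvb (1.10, SE 0.25, 0.0140) and Parvg (0.94, SE 0.18, 0.0070) were higher. Without Nfat5fl/fl mouse 1 the calls of Lims1 (adjusted p = 0.114) and Parvb (0.0661) were lost, while those of Lims2 and Parvg held in every fit without 1 array. The lower calls were the less stable, since only 1 of 42, Dock1, was left without Nfat5fl/fl mouse 1 or without Nfat5fl/fl mouse 3.

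Of the ligands of the integrins, 29 measured of 30 listed, 10 were higher and 2 lower, beside 12.5% and 13.1% of all features. With dim features left out, 11 of 28 ligands were higher and 2 lower, beside 2980 and 3001 of 12714 features. Their median difference was 0.33, beside 0.04 over all features. Higher with the smallest p were Tgfb1, whose latent form is held by αv integrins, with means of 5.87 ± 0.15 and 7.45 ± 0.10 (SD, n = 3 each, difference 1.58, SE 0.19), Col4a2, a chain of basement membrane collagen, with 6.21 ± 0.09 and 7.83 ± 0.23 (difference 1.62, SE 0.20), and Vwf, the endothelial and platelet protein bound by the Itga2b product, with 6.71 ± 0.21 and 8.32 ± 0.39 (difference 1.61, SE 0.24). Lower were Postn, a matrix protein bound by αv receptors, with 7.64 ± 0.35 and 5.92 ± 0.18 (difference -1.72, SE 0.23), and Cdh1, the epithelial cadherin bound by the Itgae product, with 7.61 ± 0.06 and 6.85 ± 0.39 (difference -0.76, SE 0.23). The collagen ligand Col4a2 was higher in the lungs in which the collagen receptor genes Itga1 and Itga2 were lower. The collagen receptor gene Itga11 was higher in them, however, as was the collagen ligand Col1a1 (difference 1.34, SE 0.21, adjusted p = 0.0032). The Cdh1 call was lost without any 1 of Nfat5fl/fl mice 1, 3 and 4 or Nfat5(EC)-/- mouse 4, which left 1 lower ligand, Postn.

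The direction of an adhesion gene went along with its genomic span, the length of the gene on the chromosome, introns included. Of the 19 genes with a span of at least 50 kb, 8 were lower and 3 higher (Itga11, Itgb5 and Pxn), while of all protein-coding features of such a span 30.8% were lower and 5.70% higher. Of the 15 shorter genes 5 were higher and 1 lower (Itgb1, at 47926 bases just under the limit), and of all shorter protein-coding features 15.6% were higher and 10.2% lower. Spearman's rho between span and difference was -0.56 across the 34 genes and -0.32 across the 19686 protein-coding features, a description over genes that share the same 6 arrays. When the fit was restricted to protein-coding features and the trend on span was removed from each array, 11 adhesion genes were higher and 4 were lower, with Itga1 (-1.53, adjusted p = 0.0262), Itga2 (-1.62, adjusted p = 0.0085), Itgb1 (-1.13, adjusted p = 0.0093) and Itgb6 (-1.10, adjusted p = 0.010) still lower. Itga4, Itga6, Itga8, Itgav and Fermt2 then no longer passed (adjusted p = 0.0603, 0.0501, 0.0641, 0.154 and 0.130), with differences of -0.91, -1.03, -0.81, -0.44 and -0.55. Itgal and Itgb3 were higher (adjusted p = 0.0367 and 0.0362). Itga5 was also higher (1.11, adjusted p = 0.0449), as it was in protein-coding features with the trend kept (1.10, adjusted p = 0.0443). The part of gene span in these results was not tested beyond this.

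**Figure D4:**
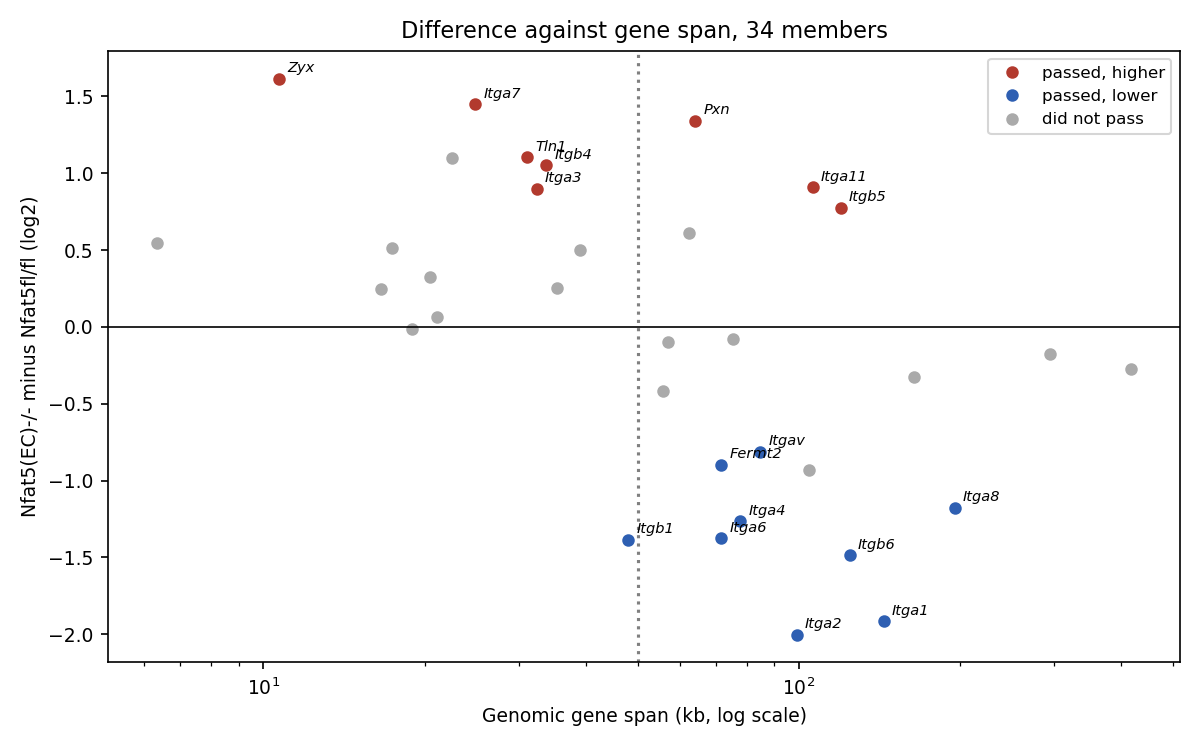
Difference between Nfat5(EC)-/- and Nfat5fl/fl lungs in log2 units against genomic gene span in kb on a log axis, 1 point per gene (34 genes), coloured by whether it passed. The dotted line marks 50 kb, to the right of which 8 of the 9 lower genes lie.

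Markers of lung cell types were set beside these values because whole lobes were profiled. The lung markers Sftpc, a surfactant protein of alveolar type 2 cells, and Scgb1a1, the club cell secretoglobin, had means of 12.20 and 12.53 in the control lungs and 11.76 and 11.94 in the deleted ones. Neither passed by limma (adjusted p = 0.254 and 0.0525). Of 10 endothelial markers 5 were lower, Cdh5 (-1.52, SE 0.26) and Pecam1 (-1.59, SE 0.34) among them. The 2 higher ones were Cldn5 (0.91, SE 0.21) and Egfl7 (1.06, SE 0.19). Summed linear values of the 10 markers were 3052 to 3716 in the control lungs and 1560 to 2006 in the deleted ones. Cdh5 and Pecam1 made the largest parts of the control sums. Of 6 fibroblast markers 2 were higher and 1 lower, with sums of 683 to 743 and 638 to 705, and Dcn (-1.36) and Col1a1 (1.34) passed in opposite directions. Alveolar macrophage markers were lower for 1 of 4, with sums of 251 to 339 and 84.4 to 187, and mesothelial markers were higher for 1 of 3, with sums of 104 to 147 and 201 to 244. Monocyte and macrophage markers were higher for 1 and lower for 1 of 5, T cell markers lower for 1 of 6 and B cell markers higher for 1 of 3, and by limma 0 of 6 neutrophil and 0 of 3 club cell markers passed, with 0 and 2 at an unadjusted p under 0.05. The summed linear values of all 25 integrin subunits were 1497 to 1624 in the control lungs and 1084 to 1128 in the deleted ones. Of these sums, Itgb1 alone made 285 to 383 and 94.8 to 157, and the 4 collagen-binding α subunits 348 to 393 and 57.4 to 165. The median difference of the 25 subunits was -0.02, with 5 higher and 8 lower. For the 9 adaptors the sums were 633 to 693 and 804 to 863, with 3 higher and 1 lower. The part of cell composition in the adhesion genes was not tested.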

How the data were processed

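Total RNA of lung lobes was labelled with biotin by the authors and hybridised to Affymetrix arrays, 1 per mouse. The deposited values are log2 expression values, which the authors computed by RMA according to the labels (background correction, quantile normalization and summary of probes). Not given in the sources used here were the RMA version, array model, probe definition and build. All arrays have 1 distribution (largest gap between sorted values 0.00183), so a change in the total RNA per lung would not be visible, and such values carry no detection call.

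Genes were found by symbol through the table that pairs the 25428 features with genes, in which 723 features were unnamed. Entries of the lists that this table did not hold were not analysed here. Groups and mouse numbers came from the sample labels. Every feature was tested with limma (version 3.58.1 in R 4.3.3), lmFit and eBayes, on all 6 arrays, with no covariate and no filter. Tests were 2-sided, p was adjusted across all features (Benjamini-Hochberg), and the threshold was 0.05. The fit was tested on simulated data. Marker sums are sums of values after undoing the log2. Gene spans and promoter windows were taken from RefSeq (GRCm38.p6), and motifs were searched on both strands with overlaps allowed.

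The adhesion genes and all lists were chosen with earlier results of these data known. Named are all adhesion genes analysed, up to 3 genes per direction with the smallest p of the adhesion protein and ligand lists, the cell type markers with the highest mean or set beside an adhesion gene, and Nfat5. Lims1, Lims2, Parvb and Parvg fall outside this rule and were chosen after their values were seen. Cldn5 and Egfl7 also fall outside it and were named as the higher endothelial markers. Alternatives were a replicate block (the mouse number), leaving dim features out, renormalization (cyclic loess, quantile, median), other variance moderation or none, array weights, protein-coding features only, these with the span trend removed, and leaving out each array in turn. Plots were made in Python 3.11.15 (matplotlib 3.10.9).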

Additional observations from a re-analysis of the deposited data

How the results depend on the processing

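The counts of 8 higher and 9 lower adhesion genes were within 1.5 times of these values under 8 of the 10 alternatives that kept all arrays. Every gene that passed kept its direction in all 16 alternative fits, but most of these fits could not turn a sign. Quantile normalization and median centring hardly changed arrays that already shared a distribution. The replicate block, the filters and the variance settings left each difference as it was. Groups of every gene that passed did not overlap, so leaving out or weighting arrays could not turn its sign. Without variance moderation 4 adhesion genes were higher and 0 lower, 6 and 2 of the further adhesion proteins, 5 and 1 of the ligands and 1118 and 866 of all features, against 12 and 9, 10 and 2, and 3185 and 3325 in the report. With the span trend removed 4 adhesion genes, 4 further adhesion proteins and 1 ligand were lower, and array weights also left 1 lower ligand. Among genes that did not pass, removing that trend turned the sign of Itga9 (0.16), Itgae (0.20), Itgb8 (0.28), Parva (0.051) and Tln2 (0.031).

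Leaving out 1 array gave 4 to 9 higher and 3 to 8 lower adhesion genes, 8 to 14 and 1 to 9 further adhesion proteins, 7 to 11 and 1 to 2 ligands and 1462 to 3138 and 1555 to 3227 of all features. The lowest adhesion counts came without Nfat5fl/fl mouse 1 (5 higher, 3 lower) and Nfat5fl/fl mouse 3 (4 higher, 3 lower). Signs turned for Itgax (-0.16 to 0.31), Itga9 (-0.36 to 0.0025), Itga10 (-0.033 to 0.0088), Itgb8 (-0.18 to 0.0019) and Itga2b (-0.29 to 0.53), none of which passed. The cause of these changes was not tested, but these fits hold fewer arrays. With the mouse number as a replicate block 9 adhesion genes were higher and 9 lower, and Itga5 was the added call (adjusted p = 0.0260). The block changed no other call of an adhesion gene. Deviations from the group means of same-numbered mice correlated at 0.06, -0.01 and 0.007, and those of differently numbered mice between -0.11 and 0.11. With 3 mice per group these values cannot show whether same-numbered mice shared more than a number.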
